A study of Rattus norvegicus with 12 samples.

Results

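Whey of rat milk taken on day 16 postpartum was compared with whey taken on day 2 for every miRNA that the scanner software called detected on at least 1 of the 6 arrays of these days. There were 158 such miRNAs of the 388 on the array (40.7%). The 188 miRNAs detected on at least 1 of all 12 arrays of the study were fitted together. The whey came from the same 3 dams of the F344/N strain on both days, so each day has 3 arrays, 1 per rat. The dams had been kept from their litters before milking, had received oxytocin and were milked under light sevoflurane anaesthesia, and this held for both days. The dams were adults obtained while pregnant, and neither day received a treatment. Whey is the fluid that remained after centrifugation and filtration had removed fat, cells and casein. Each array received 70 ng of whey RNA, so signals compare equal masses of RNA and not equal volumes of milk. Day 9 whey of these rats and their serum made up the remaining arrays. The day 2 and day 9 arrays were on slide 1 and the day 16 and serum arrays on slide 2, so slide and day cannot be told apart in the comparison of day 16 with day 2.

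A miRNA is a short RNA cut from a hairpin precursor. Either arm of the hairpin can be kept, and the arm called the star or passenger strand is usually the rarer one. The kept strand guides an Argonaute protein to mRNAs that pair with its seed, the stretch from base 2 to base 8, so miRNAs with 1 seed form a family that can act on the same mRNAs. Milk carries miRNAs outside cells, in vesicles and in complexes with protein. Day 2 falls in the colostrum period and day 16 in mature milk.

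Some of the miRNAs that the comparison turned on share a seed and others do not. RefSeq (GRCr8) held a mature sequence for 142 of the 158 miRNAs. In the sequences below the capitals mark the seed. The let-7 and miR-29 families and miR-26b, all with members higher on day 16, are shown first to make the shared seeds visible.
let-7a: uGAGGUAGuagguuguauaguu
let-7d: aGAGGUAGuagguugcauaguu
let-7e: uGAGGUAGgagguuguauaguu
let-7f: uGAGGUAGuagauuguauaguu
miR-98: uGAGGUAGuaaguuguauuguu
miR-29a: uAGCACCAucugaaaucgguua
miR-29b: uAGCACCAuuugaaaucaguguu
miR-26b: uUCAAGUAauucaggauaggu
miR-224: cAAGUCACuagugguuccguuu
miR-294: cUCAAAAUggaggcccuaucu

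The next sequences are examples of miRNAs that fell. The miRNAs that were lower on day 16 after quantile normalization included the related seeds of miR-17-92 and its paralogous clusters, the 3p arms of miR-125a and miR-125b, and several miRNAs without a relative among the measured ones. Without normalization the fitted differences of miR-19b and miR-20a turned to 0.08 and 0.65 on the log2 scale, both above 0.
miR-212: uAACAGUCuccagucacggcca
miR-125a-3p: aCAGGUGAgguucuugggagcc
miR-125b-3p: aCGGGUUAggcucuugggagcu
miR-296*: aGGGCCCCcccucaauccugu
miR-877: gUAGAGGAgauggcgcaggg
miR-341: uCGGUCGAucggucggucggu
miR-370: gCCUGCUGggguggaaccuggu
miR-494: uGAAACAUacacgggaaaccucu
miR-483: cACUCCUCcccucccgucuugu
miR-19a: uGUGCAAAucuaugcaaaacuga
miR-19b: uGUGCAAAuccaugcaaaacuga
miR-20a: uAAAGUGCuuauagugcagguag

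Signals differed in scale between the days before any comparison of single miRNAs. Summed over miRNAs, the signal per array was 22491 to 26246 on day 2 and 76845 to 120359 on day 16, a ratio of day means of 4.1. The scanner software detected 109 to 125 miRNAs per array on day 2 and 122 to 140 on day 16. The dimmest normalized signal of a miRNA with at least 0.5 of its spots well above background, taken as the background limit of an array, was 4.69 to 6.12 on the log2 scale on day 2 and 3.77 to 4.84 on day 16. No spot was saturated and none of the 15 pairs of the 6 arrays was identical. Arrays of the same day were close (R2 of 0.955 to 0.975 over the 158 miRNAs), and arrays of different days less so (0.585 to 0.685).

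The miRNA content of whey on day 16 differed from that on day 2 in most of the miRNAs tested. Higher on day 16 were 6 of 8 let-7 miRNAs, all 3 of the miR-29 family, miR-26a and miR-26b, miR-146a and miR-146b, miR-224 and the miR-290 cluster members miR-294 and miR-291a-5p. Lower were miR-212, the 3p arms of miR-125a and miR-125b, miR-296*, 5 miRNAs of the imprinted Dlk1-Dio3 cluster (4 of them also without normalization) and, relative to the other miRNAs, 9 miRNAs of the miR-17-92 and paralogous clusters. All differences were tested on quantile normalized log2 signals with limma, which fitted the 4 groups to 12 arrays, and a difference counted as passed when its p, adjusted over the 188 tested miRNAs after Benjamini and Hochberg, was under 0.05. Of the 158 miRNAs, 57 were higher, 41 were lower and 60 did not pass. Over all 188 the counts were 61 higher (32.4%) and 43 lower (22.9%), or 55.3% in either direction. Without normalization between arrays the fit called 104 higher and 15 lower, so that 87.4% of calls were higher in place of 58.7%, and the median difference of all tested miRNAs moved by 1.14 on the log2 scale.

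**Figure D1:**
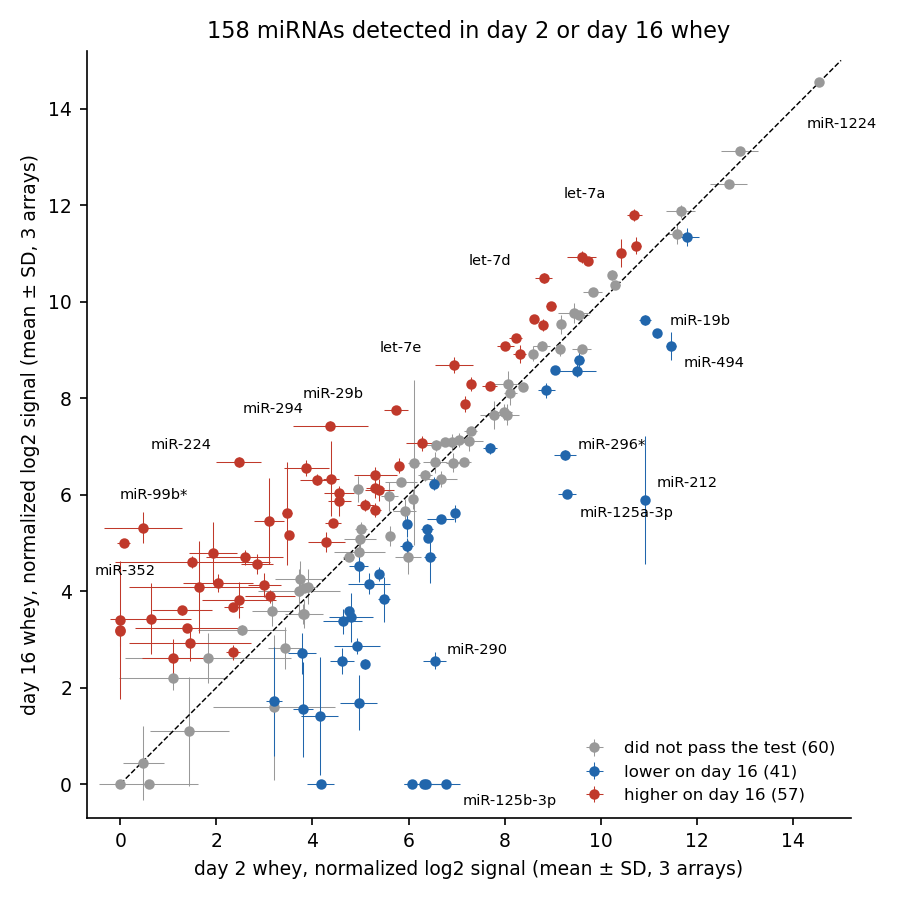
Each point is 1 of 158 miRNAs, with its mean normalized log2 signal over 3 arrays on day 2 (x axis) and on day 16 (y axis); bars are SDs and the dashed line marks equal levels. The 57 miRNAs higher on day 16 lie mostly at low and middle signal, and 4 of the 41 lower ones lie at a log2 signal of 6.08 to 6.77 on day 2 and 0.00 on day 16.

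How far a difference can be given as a fold depended on the background. Among the 158 miRNAs, 79 were measured above the background limit on both days, 28 only on day 16, 7 only on day 2 and 44 on neither. Of the 79, 20 were higher and 20 lower, and the median size of their differences was 0.48 on the log2 scale, against a median SD between rats of 0.15 on day 2 and 0.14 on day 16. The 3 day 16 arrays lay wholly above the 3 day 2 arrays for 67 of the 158 miRNAs and wholly below for 43, against 70 (37.2%) and 45 (23.9%) of all 188. For a miRNA measured on 1 day only, the fold below is a lower bound against the background limit of the other day and is written as at least that fold.

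miR-212, a miRNA that CREB induces in neurons, had the largest fall among the miRNAs measured on both days. Before normalization its signals were 433, 491 and 549 in rats 1, 2 and 3 on day 2 and 61.7, 120 and 19.1 on day 16. All 3 day 16 signals were below all 3 day 2 signals although the arrays of day 16 were brighter in total. On the normalized log2 scale it was 10.87, 10.87 and 10.99 on day 2 against 6.71, 6.58 and 4.37 on day 16, a fall of 32.6-fold (log2 difference −5.03 ± 0.95 SE, adjusted p = 0.0015). The day 16 array of rat 3 was the lowest, under the background limit of that array (4.47), and without it the log2 difference was −4.22 (adjusted p = 0.0078). The SD between rats was 0.07 on day 2, 1.32 on day 16 and 2.11 on day 9, and all these arrays share 1 fit. The miRNA held rank 10 by signal on day 2 and rank 78 on day 16. The neighbouring miR-132 on chromosome 10, with the same seed (AACAGUC), was not detected on the 6 arrays. Signals of miR-132 before normalization were −5.15, −6.31 and −4.88 on day 2 and −4.35, −4.89 and −4.18 on day 16.

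miR-125a-3p, the arm opposite to miR-125a-5p, which is related to the lin-4 miRNA of worms, fell 9.59-fold (−3.26 ± 0.11, adjusted p = 7.4e-09). Its signals before normalization were 229, 267 and 238 on day 2 and 34.6, 77.2 and 48.2 on day 16. The groups did not overlap on either scale, and on the normalized scale the 3 day 16 arrays lay within 5.97 to 6.07. miR-296*, the passenger strand of the miR-296 hairpin, went from 235, 236 and 252 to 90.0, 138 and 89.5 before normalization, and fell 5.43-fold after it (−2.44 ± 0.15, adjusted p = 1.2e-06). Again no day 16 array reached a day 2 array. miR-483, which lies within the span of the insulin-like growth factor gene Igf2, had 32.5, 33.8 and 34.1 on day 2 and 21.9, 25.9 and 23.1 on day 16, with a log2 difference of −1.74 ± 0.31 (adjusted p = 0.001).

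The remaining large falls rested on the position of these miRNAs among the others and not on a clear loss of signal. miR-494, a miRNA of the Dlk1-Dio3 cluster, had 820, 879 and 694 before normalization on day 2 and 465, 802 and 444 on day 16, and these groups overlapped. After normalization it fell 5.18-fold (−2.37 ± 0.54, adjusted p = 0.0042), and without normalization the difference was −0.53 (adjusted p = 0.49). miR-19b, a member of the oncogenic miR-17-92 cluster, had 566, 673 and 596 on day 2 and 496, 943 and 570 on day 16. Its normalized value was 11.17 on each of the 3 day 2 arrays, since quantile normalization gives equal ranks equal values, and 9.45, 9.33 and 9.25 on day 16. It fell 3.54-fold on that scale (−1.82 ± 0.12, adjusted p = 1.2e-06). miR-19a, miR-20a, miR-188 and miR-181c followed with falls of 2.56-fold, 2.47-fold, 2.47-fold and 2.27-fold, and none of these 4 passed without normalization.

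The 4 largest rises among miRNAs measured on both days were those of miR-29b, let-7e, let-7d and let-7f. miR-29b, whose known targets include collagen and DNA methyltransferase mRNAs, had 14.9, 25.6 and 20.4 before normalization on day 2 and 145, 298 and 208 on day 16. On the normalized scale these were 5.60, 6.03 and 5.60 against 7.70, 7.77 and 7.77, without overlap, a rise of 4.01-fold (2.01 ± 0.18, adjusted p = 1.1e-05). let-7e had 6.49, 7.21 and 7.16 on day 2 and 8.67, 8.53 and 8.87 on day 16, a rise of 3.33-fold (1.73 ± 0.20, adjusted p = 6.5e-05). Rat 1 was the lowest of the day 2 rats here, and also for let-7d and let-7f. let-7d rose 3.22-fold, from 8.60, 8.87 and 8.95 to 10.43, 10.43 and 10.62 (adjusted p = 6.3e-05). let-7f rose 2.50-fold and let-7a 2.13-fold. Every rat was higher on day 16 for all of them, which the choice of the named rises required.

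The other rises among the 10 largest were 1.99-fold to 2.16-fold. miR-29a rose 2.16-fold, miR-26b 2.06-fold and miR-151 1.99-fold. miR-146b, a relative of miR-146a that dampens innate immune signalling, rose 2.00-fold (1.00 ± 0.20, adjusted p = 0.0018). miR-31, a miRNA of epithelial cells, was 7.85, 8.20 and 7.97 on day 2 and 9.12, 9.05 and 9.05 on day 16, a rise of 2.10-fold (1.07 ± 0.34, adjusted p = 0.023). The day groups of miR-31 did not overlap, but its call was lost when rat 1 or rat 3 was left out of either day (adjusted p of 0.051 to 0.083).

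**Figure D2:**
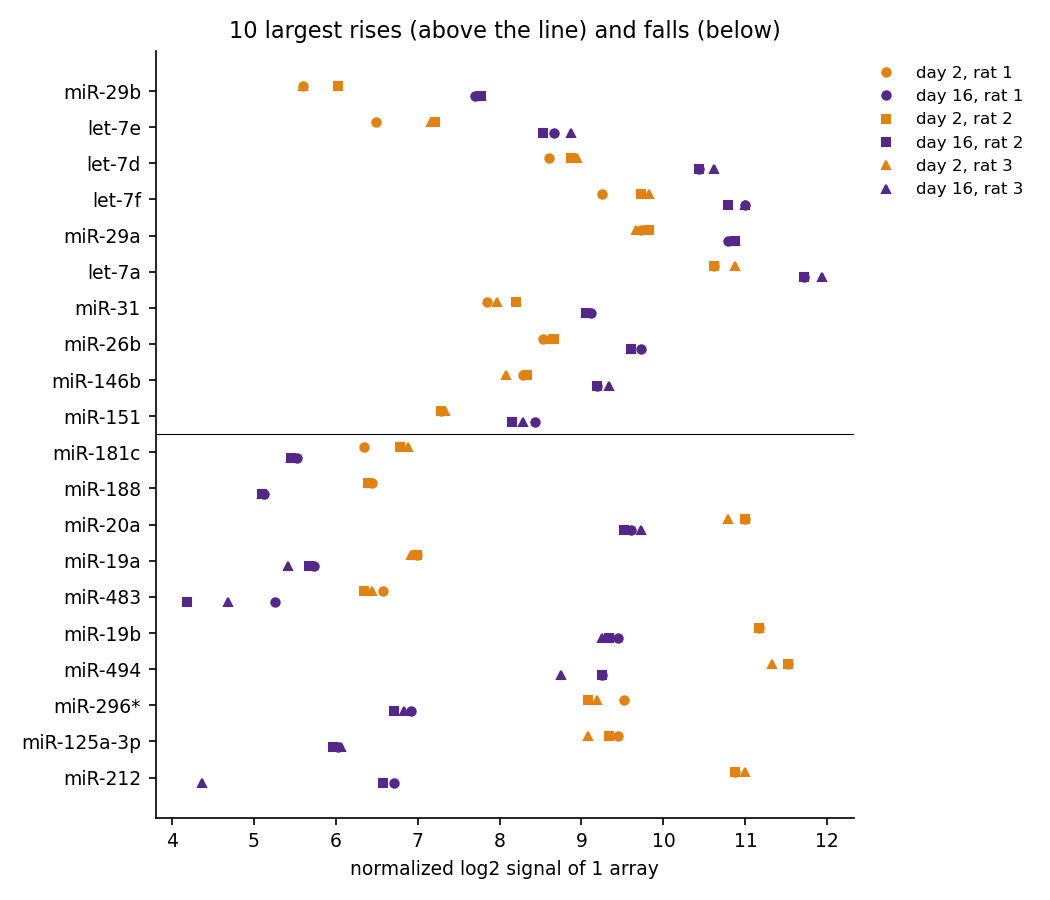
Normalized log2 signal (x axis) of each of the 6 arrays for the 10 largest rises and the 10 largest falls among miRNAs that passed the test and were measured on both days; colour marks the day and the symbol marks the rat, and equal values cover each other. In all 20 miRNAs the 3 arrays of day 16 lie on 1 side of the 3 arrays of day 2. The choice required the same sign in all 3 rats, which favours such a separation. The falls of miR-19b and miR-20a are not seen without normalization.

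Some miRNAs were detected in all 3 rats on 1 day and in none on the other. There were 8 of them on day 2 only: miR-125b-3p, miR-133a, miR-196c, miR-290, miR-341, miR-370, miR-874 and miR-877. miR-125b-3p had signals of 40.6, 41.6 and 37.5 on day 2 and −6.58, −6.66 and −5.27 after background subtraction on day 16, and was at least 5.33-fold lower (adjusted p = 8.2e-06). miR-877, a mirtron that is spliced out of the Abcf1 gene and bypasses Drosha, had 36.6, 25.8 and 26.0 against −3.68, −5.23 and −2.99 and was at least 3.94-fold lower (adjusted p = 2.8e-09). All 3 day 16 values of both miRNAs were below 0, that is, at background. miR-290 was at least 4.53-fold lower, miR-370 at least 4.00-fold and miR-341 at least 3.31-fold, while miR-874, miR-196c and miR-133a were under the background limit on both days and are given no fold. All 8 passed the test, where 55.3% of all 188 tested miRNAs did, and all 8 were lower without normalization too. They were chosen by detection on the same arrays, so neither count is independent support.

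Present in all 3 rats on day 16 and in none on day 2 were 16 miRNAs. Of these 14 passed the test, where 55.3% of all 188 tested miRNAs did. The 16 were chosen by detection on the same arrays, so their passing is no independent support. miR-224, which lies within the span of the GABA receptor gene Gabre, was 1 of them. It had 2.77, 2.41 and 2.82 on day 2 and 63.3, 134 and 75.7 on day 16 before normalization, and was at least 2.48-fold higher (adjusted p = 4.9e-06). miR-352 went from −1.81, −2.82 and 0.0218 to 20.2, 39.3 and 26.8 (adjusted p = 6.7e-09). miR-99b*, the passenger strand of miR-99b, went from −1.76, 0.428 and 1.19 to 21.3, 42.5 and 42.7 (adjusted p = 3.5e-05). The groups of these miRNAs did not overlap, but their day 16 levels were so near the background limit of day 2 that no fold is given for miR-352 and miR-99b*. The other miRNAs that passed were miR-130b, miR-181a*, miR-192, miR-29c*, miR-30c-2*, miR-30e*, miR-340-3p, miR-340-5p, miR-34a, miR-672 and miR-7a*. With normexp background correction miR-99b* (0.35), miR-192 (0.27), miR-34a (0.52), miR-130b (0.11) and miR-30e* (0.06) did not pass (adjusted p of 0.056 to 0.15), and miR-7a* turned to −0.09 (adjusted p = 0.30). With the rat as a block miR-7a* did not pass either (0.39, adjusted p = 0.084). miR-30c-1* and miR-760-3p had differences of 1.10 and −0.30 and did not pass (adjusted p of 0.24 and 0.81). Detection also depends on how bright an array is, and the day 16 arrays were the brighter ones.

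Counted by detection alone, 113 miRNAs were found on both days, 15 on day 2 only and 30 on day 16 only. Of the 113, 98 were detected on all 6 arrays. Day 2 whey had 128 miRNAs on at least 1 array and 108 on all 3, and day 16 whey 143 and 122.

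The let-7 family, regulators of developmental timing and differentiation, had 6 of 8 members higher and none lower, with a median difference of 1.21 beside 0.13 over all tested miRNAs. Of all 188 tested miRNAs 32.4% were higher and 22.9% lower. let-7i rose by 0.93 (adjusted p = 0.00027) and miR-98, a family member on the X chromosome, was at least 1.92-fold higher (adjusted p = 5.2e-06). The summed signal of the family was 14.8%, 19.6% and 18.8% of all signal on day 2 and 24.8%, 27.0% and 24.7% on day 16, so each rat and each array of day 16 exceeded all of day 2. let-7b and let-7c, the brightest members, had differences of 0.23 and −0.23 and did not pass after quantile normalization, while let-7c turned to 0.87 with 75th percentile scaling and 2.22 without normalization, where it passed. They held ranks 2 and 3 on both days, and a rank near the top leaves quantile normalization little room to move.

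All 3 members of the miR-29 family were higher (miR-29c 0.57, adjusted p = 0.0085), with a share of the signal of 1.64% ± 0.183 on day 2 and 2.75% ± 0.272 on day 16 (SD, n = 3). The rise of miR-29c did not pass once a slope on GC content was removed (0.30, adjusted p = 0.14). Both miR-26 members, which restrain growth in many cell types, were higher, miR-26a by 0.73 (adjusted p = 0.00072). Over all 188 tested miRNAs 32.4% were higher, and the miR-29 and miR-26 families are small. The miR-30 family was mixed: miR-30b-5p and miR-30e were higher by 0.70 and 0.37 and miR-30d was lower by −0.57 after normalization, where the last reads 0.61 without normalization. The median of the miR-30 family was 0.34.

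The miR-17-92 cluster and its paralogs, which promote cell proliferation, had 9 of 11 tested members lower, none higher, and a median of −1.02 after quantile normalization, while without normalization none of the 11 passed and miR-17-5p, miR-20a, miR-19b, miR-92a, miR-106b, miR-93 and miR-25 had small positive differences (0.08 to 0.69). The 2 others, miR-20b-5p and miR-363, were not detected on the 6 arrays. As a share of all signal the list fell from 8.05%, 8.45% and 7.45% to 2.59%, 3.24% and 2.38%, and the days did not overlap. miR-18a and miR-19a had −0.23 and −0.13 without normalization (adjusted p of 0.70 and 0.78). By seed, all 4 members with AAAGUGC (miR-17-5p, miR-20a, miR-93 and miR-106b), both with GUGCAAA (miR-19a and miR-19b) and both with AUUGCAC (miR-25 and miR-92a) were lower on the normalized scale. In the miR-181 family 3 of 4 were lower, namely miR-181b, miR-181c and miR-181d, while miR-181a was 7.16, 7.42 and 7.28 on day 2 and 7.33, 7.28 and 7.33 on day 16 (0.03 ± 0.17, adjusted p = 0.96). None of the miR-181 falls passed without normalization, and miR-181b and miR-181d were under the background limit on both days. Beside the counts of 9 of 11 and 3 of 4 stand 22.9% of all 188 tested miRNAs that were lower. A count in a family of 4 carries little weight.

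The Dlk1-Dio3 cluster is an imprinted region on chromosome 6 from which the maternal chromosome expresses many miRNAs. Of its miRNAs on the array 38 were listed, with 7 tested and 5 detected on the 6 arrays. Others of the array in this region, such as miR-485 and miR-665, were not in the list. All 5 were lower, where 22.9% of all 188 tested miRNAs were: miR-341, miR-370, miR-494, miR-134 and miR-409-3p. Of these, miR-134 was under the background limit on both days and was detected on only 1 of the 6 arrays, on day 2. The median of the 7 was −2.37, and 1 of the 7 that was not detected on these arrays was higher. The share of signal of the list fell from 4.11%, 3.94% and 3.01% to 0.629%, 0.690% and 0.460%, without overlap, and miR-494 made up most of it on both days. Without normalization 4 of the 5 still passed as lower, the exception being miR-494. miR-341 and miR-370 lie on the plus strand at chr6:134347871-134347891 and chr6:134354538-134354559, and miR-494, miR-134 and miR-409-3p further along it from chr6:134550163 to chr6:134579250 (GRCr8).

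The miR-290 cluster, known from embryonic stem cells, split. miR-294 had 3.67, 5.21 and 4.24 on day 2 and 7.42, 7.33 and 7.52 on day 16 and was at least 4.15-fold higher (adjusted p = 3.6e-05). miR-291a-5p was at least 2.26-fold higher (adjusted p = 4.8e-06), and miR-292-5p had a difference of 1.16 that did not pass (adjusted p = 0.063). miR-290 fell from 6.69, 6.28 and 6.65 to 2.38, 2.74 and 2.56. The other 4 cluster members on the array, miR-291a-3p, miR-292-3p, miR-293 and miR-295, were not detected on the 6 arrays. The seeds of miR-294 (UCAAAAU) and miR-291a-5p (AUCAAAG) differ from that of the undetected miR-291a-3p (AAGUGCU).

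**Figure D3:**
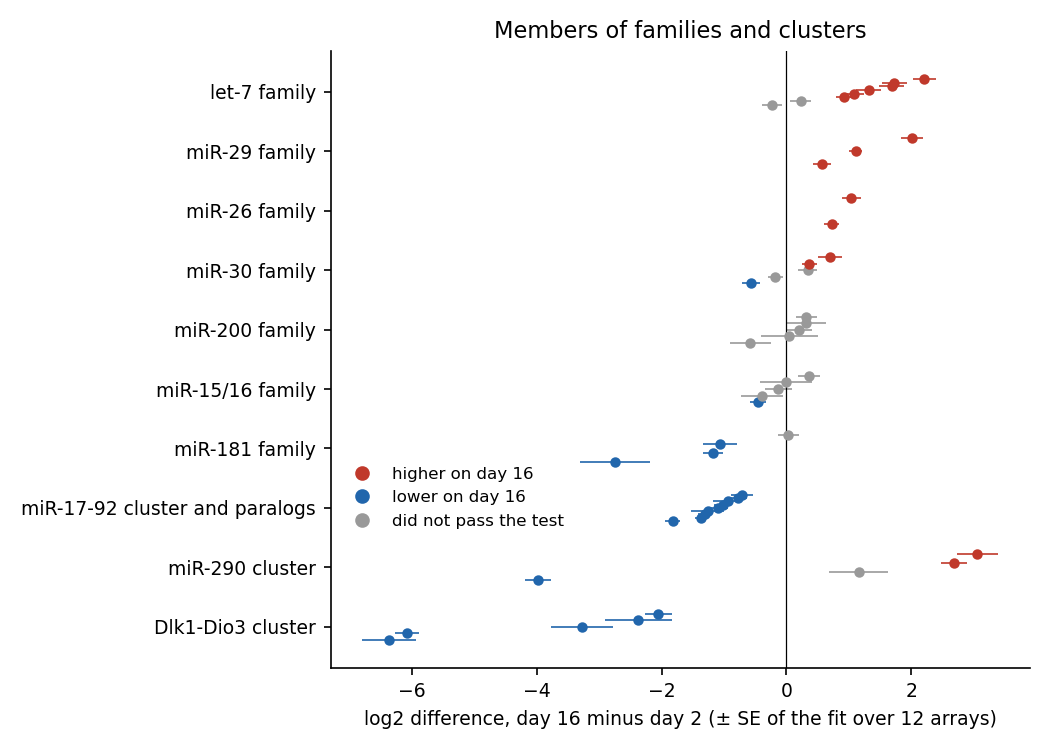
Log2 difference between day 16 and day 2 (x axis, points, with the SE of the fit as bars) of the members of 10 families and clusters, coloured by the test. The let-7, miR-29 and miR-26 points lie to the right except let-7c at −0.23, which is positive under other scalings; the Dlk1-Dio3 and miR-17-92 points lie to the left, the latter after normalization, without which miR-18a (−0.23) and miR-19a (−0.13) are still below 0.

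miRNAs that lie side by side on the genome did not always move together. Among the 128 miRNAs with a single RefSeq position, 62 lay within 10 kb of another on the same strand, in 27 groups. Of these groups 18 had calls in 1 direction, 4 in both and 5 had none, where 55.3% of all 188 tested miRNAs were called. A group with a single called miRNA counts as 1 direction, and some groups are only the 2 arms of 1 hairpin. The group of miR-99b, let-7e and miR-125a spans 679 bp of chromosome 1 (chr1:67350070-67350748, plus strand, within the span of the Spaca6 gene) and had calls in both directions. miR-99b, miR-99b* and let-7e were higher, miR-125a-5p had 0.37 ± 0.23 (adjusted p = 0.23), and miR-125a-3p was lower. On single arrays before normalization, let-7e minus miR-125a-3p was −2.83, −2.29 and −2.06 on day 2 and 3.23, 2.87 and 3.20 on day 16. That is a shift of 5.49 on the log2 scale between miRNAs of 1 genomic neighbourhood, and the days did not overlap. The other 3 groups with calls in both directions were miR-181a* with miR-181b, miR-532-5p with miR-188, and miR-96 with miR-183, where miR-183 was lower by −0.73 after normalization and higher by 0.75 without it.

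The 2 arms of a hairpin share a precursor, and their difference on an array does not change with a factor applied to the whole array. For miR-125a the log2 signal of the 5p arm minus the 3p arm was −4.13, −3.69 and −3.51 on day 2 and 0.39, −0.33 and −0.02 on day 16, a shift of 3.79. For miR-125b-5p minus miR-125b-3p it was 0.53, 0.07 and 0.89 on day 2 and 6.62, 7.40 and 7.12 on day 16, where the 3p arm was at background and was set to 1. The 5p arm of miR-125b is also made from a second hairpin. The days did not overlap in either hairpin, and the two-sided exact permutation test gave p = 0.10 for each, the smallest p that 3 arrays against 3 allow. This was not particular to miR-125. Many of the 19 listed hairpins reached the same p without overlap, among them miR-140 (shift 0.66), miR-378 (−1.22) and miR-181a (−1.17). For miR-181a the star arm was detected on no day 2 array. In miR-140 and miR-378 both arms were detected together on 2 of the 3 day 2 arrays. For miR-30a minus miR-30a*, whose star arm was under the background limit on day 2, the difference was 1.93, 1.88 and 1.91 on day 2 and 1.93, 1.81 and 1.69 on day 16 (shift −0.09, exact p = 0.40). Signals of different arms come from different probes, so only the shift between days and not the level of the difference can be read.

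miR-1224, a mirtron within the span of the Vwa5b2 gene, had the highest signal on all 6 arrays. It took 30.9%, 21.9% and 25.7% of the signal on day 2 and 38.6%, 28.1% and 38.7% on day 16, and these ranges overlapped. Its normalized value is 14.55 on every array by construction, since it is always ranked first, so the test cannot show a change. Its unnormalized difference was 2.44 (adjusted p = 0.00024). The 10 brightest miRNAs held 57.8% to 62.6% of the signal on day 2 and 68.1% to 74.2% on day 16. Of them 6 were in the first 10 on both days, while miR-494, miR-19b, miR-20a and miR-212 left the first 10 and miR-22, miR-21, let-7a and let-7f entered it. The signal of a miRNA also depends on its probes, so shares compare days and do not rank miRNAs by copy number.

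Epithelial markers such as miR-200c, miR-31 and miR-183 were detected on both days. None of the 5 members of the miR-200 family, which keeps epithelial cells epithelial, passed the test, and their median was 0.20. miR-200c was 11.33, 11.72 and 11.94 on day 2 and 11.94, 11.94 and 11.72 on day 16. The share of signal of the family was 9.09% ± 0.941 on day 2 and 8.20% ± 0.798 on day 16 (SD, n = 3), so the difference lay within the spread between rats. Without normalization 4 of the 5 were higher. miR-203 and miR-205 had differences of 0.67 and −0.35 and did not pass. miR-203 was detected on no day 2 array and lay under the background limit on both days. Of the other epithelial markers, miR-31 and miR-96 were higher (1.07 and 0.78, adjusted p of 0.023 and 0.0018). miR-183 was lower after normalization (−0.73, adjusted p = 0.0076) and read 0.75 without it. miR-182 was detected in 2 rats on day 16 and in none on day 2.

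In the miR-15/16 family miR-16 alone was lower (−0.46, adjusted p = 0.012), and it read 0.18 with 75th percentile scaling and 1.53 without normalization. Neither member of the miR-103 and miR-107 family passed, nor did miR-148b-3p and miR-152. Of the 5 miRNAs of the miR-23, miR-27 and miR-24 clusters, miR-23b was higher (0.61, adjusted p = 0.0023) and miR-27a lower (−0.48, adjusted p = 0.007), the latter 0.83 without normalization. In the family of miR-130 and miR-301a, miR-130b was higher by 1.36 and miR-301a lower by −1.48 (adjusted p = 0.027, and 0.055 to 0.077 without any 1 of the day 2 arrays), both under the background limit on both days. miR-99a rose by 0.70 (adjusted p = 0.00083), and miR-99b was higher but under that limit. The 3 miRNAs known to be induced in inflammation, miR-21, miR-146a and miR-146b, were all higher, miR-21 by 0.57 (adjusted p = 0.011), which did not pass once the GC slope was removed (0.30, adjusted p = 0.23). Over all 188 tested miRNAs 32.4% were higher. Of the miRNAs made without Drosha, miR-320 was at least 1.44-fold higher and miR-484 at least 2.19-fold lower after normalization (−0.35 without it, adjusted p = 0.16). Of the liver and gut miRNAs only miR-192 was detected on these arrays. None of the mesenchymal miRNAs passed, and miR-143, the brightest of them, had −0.19 (adjusted p = 0.84), which was 1.81 without normalization.

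Markers of blood, endothelial and muscle cells took a small share of the signal. The mesenchymal list, nearly all of it miR-143, took a mean of 3.52% on day 2 and 3.00% on day 16. The erythroid miR-451 and miR-144 and the endothelial miR-126 and miR-126* were not detected on any of the 6 arrays. Of the 4 leukocyte miRNAs, miR-142-5p and miR-150 were not detected, and the summed share of the list was 0.0984% to 0.123% on day 2 and 0.0364%, 0.516% and 0.0584% in rats 1, 2 and 3 on day 16. Rat 2 on day 16 stood apart through miR-223, a miRNA of neutrophils, which was 8.60 there against 5.40 and 5.97 in the other rats of that day. The same array had the highest miR-146a (7.16, against 5.60 and 6.23) and miR-34a (6.78, against 4.69 and 5.36). miR-146a was at least 1.94-fold higher on day 16 (adjusted p = 0.001) and had a log2 difference of 1.95, which was 1.55 (adjusted p = 0.0011) without that array. The difference of miR-34a went from 2.14 to 1.58 (adjusted p = 0.0031) without it. miR-142-3p was higher by 2.80 (adjusted p = 0.00066) but under the background limit on both days. Among muscle miRNAs, miR-133a was among the 8 miRNAs found on day 2 only, miR-206 was detected in 2 rats on day 16 only (adjusted p = 0.0076) and miR-133b did not pass. miR-1 was not detected, and the share of the list was 0.127% ± 0.0123 on day 2 and 0.0383% ± 0.00422 on day 16 (SD, n = 3). Most of that share was miR-133b. Its signals before normalization were 24.8, 20.7 and 25.9 on day 2 and 19.8, 28.2 and 23.9 on day 16, and these overlapped. The total signal, against which the share is taken, was higher on day 16. The part of these cell types in the differences was not tested.

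Day 9 whey, measured on the same slide as day 2 whey, gives the values of these miRNAs without a change of slide. Both comparisons use the same 3 day 2 arrays, so they are set side by side only. Day 9 against day 2 gave −6.46 for miR-212 (adjusted p = 0.00035), −3.44 for miR-125a-3p (adjusted p = 6.1e-09), −2.41 for miR-296* (adjusted p = 1e-06) and −1.84 for miR-19b (adjusted p = 1e-06). It gave 1.06 for miR-29b, 1.41 for let-7e, 1.27 for let-7d and 3.69 for miR-294, and all 4 passed. Both days of this comparison are on slide 1, and the part of the slide in the day 16 differences was not tested. Day 9 was compared with day 2 after normalization only, and the day 16 fall of miR-19b is not seen without it. miR-31 and miR-146b did not pass on day 9 (0.16 and 0.12), nor did miR-17-5p, miR-92a, miR-25, miR-93 and miR-106b (−0.16 to 0.29). For miR-92a, miR-25, miR-93 and miR-17-5p the difference between day 16 and day 9 was −1.23 to −0.84 and passed, and that of miR-224 was 1.87 (adjusted p = 0.008). These later steps are between slides, where slide and day cannot be told apart. Over all tested miRNAs the fit called 53 higher and 32 lower between day 9 and day 2, and 8 and 6 between day 16 and day 9.

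**Figure D4:**
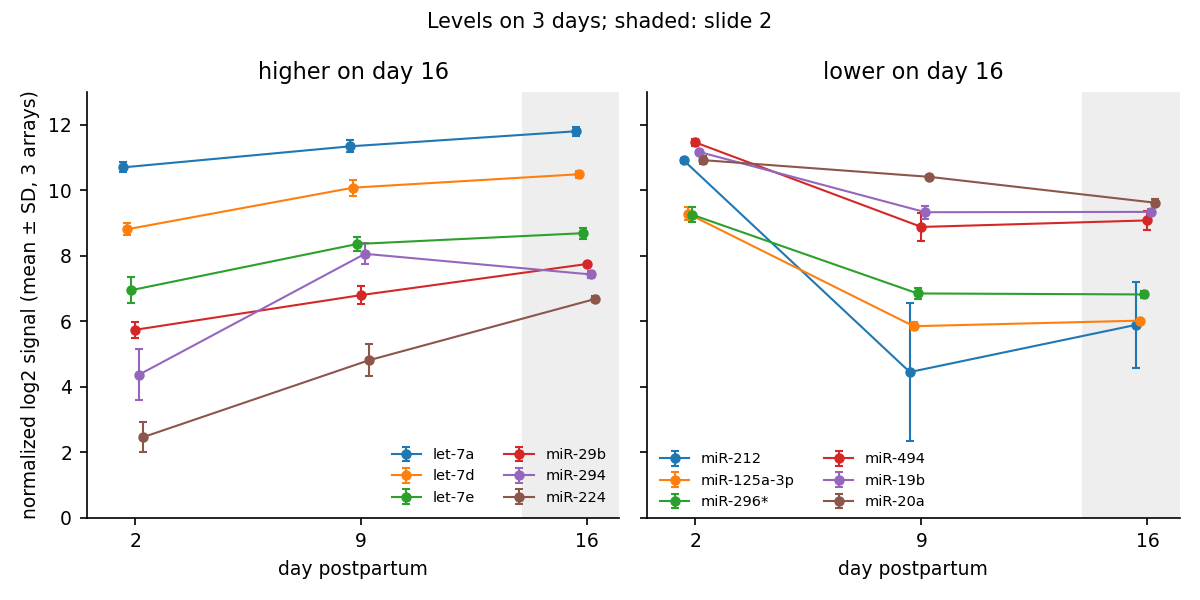
Normalized log2 signal (y axis, mean of 3 arrays with the SD as bars) by day postpartum (x axis) for 6 miRNAs higher and 6 lower on day 16; grey marks the day 16 arrays, which are on the second slide. miR-125a-3p, miR-296* and miR-19b are near their day 16 level by day 9, miR-212 is at 4.45 on day 9 and 5.89 on day 16, and miR-224 moves over both intervals; the falls of miR-19b and miR-20a are not seen without normalization.

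The choice of scaling decided the direction of a part of the falls, among them those of miR-19b and miR-20a. Of the 43 miRNAs called lower after normalization, 15 were lower and passed without it, and 15 turned to positive differences, of which 4 passed as higher. The 15 that were lower either way include miR-125b-3p, miR-370, miR-877, miR-341, miR-212, miR-874, miR-290, miR-125a-3p, miR-196c, miR-296*, miR-133a and miR-483. Of the 61 called higher, 60 were higher and passed without normalization. Leaving it out moved the median difference up by 1.14, so this count was nearly fixed in advance and is no check of the rises.

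**Figure D5:**
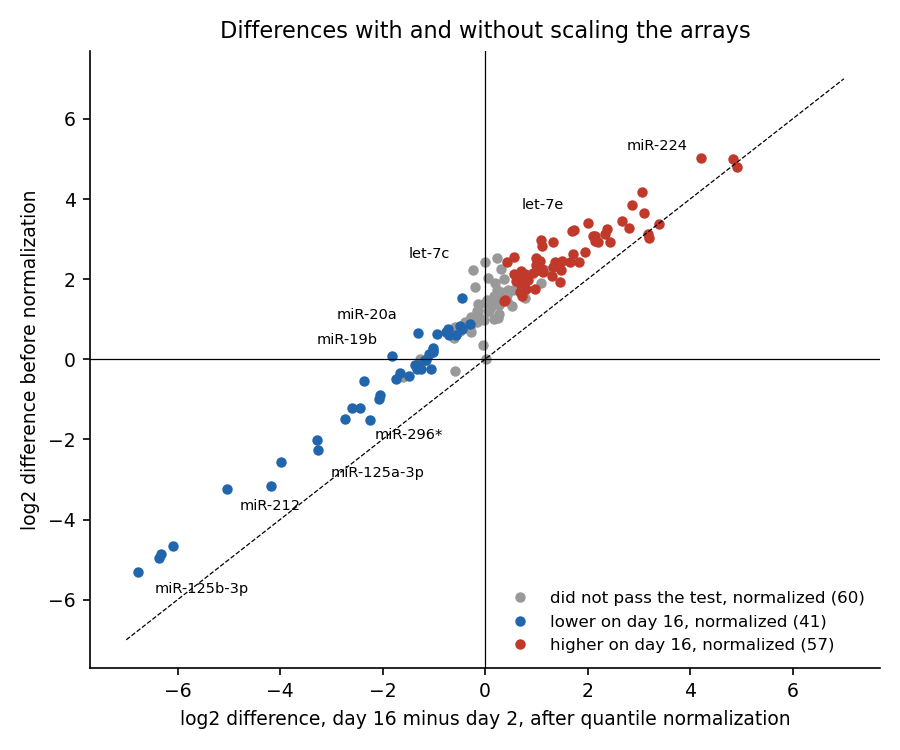
Log2 difference between day 16 and day 2 of the 158 miRNAs after quantile normalization (x axis) and before any normalization (y axis), coloured by the test on normalized values; the dashed line marks equal differences. Nearly all points lie above the line, and blue points such as miR-19b (0.08) and miR-20a (0.65) lie above 0 before normalization while miR-212 (−3.23) stays far below it.

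Base composition differed between the miRNAs that rose and fell. The median GC content of the mature sequence was 45.5% among miRNAs called higher, 52.4% among those called lower and 47.8% among those that did not pass. Across the 72 miRNAs measured on both days with a sequence, GC content and the log2 difference had a Pearson r of −0.358 and a Spearman rho of −0.34, given as a description since the miRNAs share the same 6 arrays. With a slope on GC removed, 49 of 166 miRNAs were higher and 40 lower, where 51 and 37 of the same 166 were called without that step.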

How the data were processed

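Total RNA of whey (3 rats, days 2, 9 and 16) and serum was hybridized by the authors to 1-colour Agilent miRNA arrays. Per the file headers and the submitters' notes, Agilent Feature Extraction 9.5.3.1 made the deposited values, which are background-subtracted intensity per miRNA and are not normalized between arrays. The deposited normalized table names no sample over any of its 12 columns. It was left out, as was the table of spot values.

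Intensity per miRNA was quantile normalized over 12 arrays, as in the study's methods. Values under 1 were raised to 1 before log2 was taken. For 188 miRNAs the means of the 4 groups were fitted with limma 3.58.1 (R 4.3.3), with two-sided tests and Benjamini-Hochberg adjustment. Python 3.11.15 was used for the rest. The fit was tested on simulated data. Precision is limited by 3 arrays per day.

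The labels give the rat, so rats pair the samples. Deviations from the day means correlated by 0.0629 to 0.101 within rats and −0.0938 to 0.00993 between rats. The rat is a block in an alternative fit.

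Named were the 10 largest changes per direction among passing miRNAs measured on both days, miRNAs detected in 3 rats of 1 day and none of the other, the 10 brightest per day, and examples from 25 lists and 19 hairpins. The largest changes also had to have the same sign in all 3 rats and detection on all 3 arrays of at least 1 day. Members, lists and the genomic groups were chosen with earlier results of these data known. The genomic groups, the arms' differences and the differences between miRNAs of 1 group were added after the values were seen. Alternatives were other scalings, background correction, floors, filters, the 6 arrays alone, a trend, the block, GC content, Tukey-Kramer and leaving out each array. RefSeq sequences and positions are of GRCr8.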

Additional observations from a re-analysis of the deposited data

How the results depend on the processing

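Without normalization between arrays the counts moved to 104 higher and 15 lower, from 61 and 43. Under the other alternatives they were within 1.5 times of these: 46 to 60 higher and 33 to 47 lower. Leaving out 1 array gave 54 to 59 higher and 37 to 42 lower, 14 to 16 miRNAs detected on day 2 only, 28 to 36 on day 16 only and 107 to 113 on both. With the rat as a replicate block, which pairs the days, 59 were higher and 42 lower, and among 105 named miRNAs only miR-7a* lost its call (0.39, adjusted p = 0.084). With the block and the GC slope together there were 49 higher and 40 lower of 166.

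Directions reversed without normalization for let-7c (2.22), miR-106b (0.60), miR-125b-5p (1.23), miR-143 (1.81), miR-16 (1.53), miR-17-5p (0.22), miR-183 (0.75), miR-193 (0.27), miR-19b (0.08), miR-20a (0.65), miR-25 (0.69), miR-27a (0.83), miR-30c (1.03), miR-30d (0.61), miR-92a (0.62) and miR-93 (0.13). They reversed with 75th percentile scaling for let-7c (0.87) and miR-16 (0.18), and with normexp background correction for miR-125b-5p (0.57), miR-182 (−0.13), miR-183 (0.42) and miR-7a* (−0.09). The cause was not tested beyond the scaling itself. Normexp correction also ended 14 calls of named miRNAs, among them miR-99b* (0.35), miR-192 (0.27), miR-34a (0.52), miR-17-5p (−0.16) and miR-93 (−0.18), and the GC slope ended 4, among them miR-21 (0.30, adjusted p = 0.23). miR-206 was lost with a floor of 5 (1.13, adjusted p = 0.092). miR-31, miR-30e, miR-16, miR-301a and miR-7a* lost their calls when single arrays were left out. With 3 arrays per day, and 44 of 158 miRNAs under the background limit on both days, small differences of dim miRNAs could not be resolved.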
